A study of Mus musculus with 6 samples.

Results

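The genes described here were the Wnt pathway genes of mouse lung epithelial cells that overexpressed the nuclear receptor NR4A1. They were 44 genes, picked by name from the 34745 genes of the deposited table: 8 Wnt ligands, 9 secreted antagonists, 10 Frizzled receptors, 5 co-receptors and regulators of receptor turnover, 3 Dishevelled proteins, 5 genes of beta-catenin and its destruction complex, and 4 TCF/LEF factors.

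Wnt proteins are secreted, lipid-modified ligands that bind a Frizzled receptor together with the co-receptor LRP5 or LRP6. Without ligand, a complex built on AXIN and APC lets GSK3B mark beta-catenin for destruction, and with ligand the Dishevelled proteins hold that complex back, so that beta-catenin reaches the nucleus and acts with TCF/LEF factors. In the lung this signaling shapes branching and alveolar development and takes part in alveolar type 2 cell renewal and in repair after injury.

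MLE-12 is an established epithelial line from lung tumours of a mouse that carried the simian virus large T antigen under a surfactant protein C promoter. The NR4A1 group comprised 3 libraries from MLE-12 cells transfected with the NR4A1 open reading frame in the plasmid pCMV-SPORT6, and the control group comprised 3 libraries from MLE-12 cells transfected with the pCMV-SPORT6 vector. Both groups thus carried the plasmid backbone, whose cytomegalovirus promoter drove the insert. All 6 libraries were bulk RNA sequencing libraries from 1 line, so fewer cells with a transcript and less transcript per cell cannot be told apart. No label says that the libraries of a group came from separate cultures, so each p-value measures the spread between these libraries, which may be technical.

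The libraries held 15019038 to 17574340 counts each, and 3 counts corresponded to 0.170 to 0.203 CPM, counts scaled to library size. *Nr4a1* had 50660 to 68555 counts in the NR4A1 libraries and 428 to 510 in the vector libraries, as the labels state. NR4A1 replicate 2 stood apart from the other libraries. The summed CPM of 12 endothelial markers was 152 there and 15.7 to 19.4 in the other 5 libraries. *Kdr*, *Tie1*, *Cldn5*, *Erg* and *Sox17* were at 0 counts outside it, but *Cldn5* and *Sox17* had only 3 and 5 counts in it. *Tek* went the other way, at 5.30 CPM in that library and 6.09 to 7.35 CPM in the others. The sum of 12 fibroblast markers was 2528 in that library against 1185 to 1352 in the others, and without the abundant *Dcn* it was 1649 against 223 to 392. Vector replicate 1 had the second highest value, 392. Of these lists, 11 of 12 endothelial, 10 of 12 fibroblast, 9 of 10 smooth muscle and 5 of 10 immune markers were highest in NR4A1 replicate 2, against 4 of 18 lung epithelial markers, and the immune marker *Tyrobp* was at 0 throughout. Of the epithelial markers, *Nkx2-1*, *Sftpc*, *Krt8*, *Krt19* and *Cdh1* were among those well counted in every library. *Epcam* had at most 22 counts, *Lamp3* at most 6, *Sftpd* at most 2, *Cldn4* at most 1, and *Sftpa1* was at 0. *Krt18* had 164 counts in NR4A1 replicate 2 and 2 to 21 in the other libraries. The summed CPM of the 18 epithelial markers was 1196 to 1341 in the NR4A1 libraries and 1344 to 1479 in the vector libraries, which narrowly did not overlap. *Krt19* alone held 398 to 570 CPM of these sums, and its groups overlapped. Results that turn on NR4A1 replicate 2 are therefore given with and without it.

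**Figure D1:**
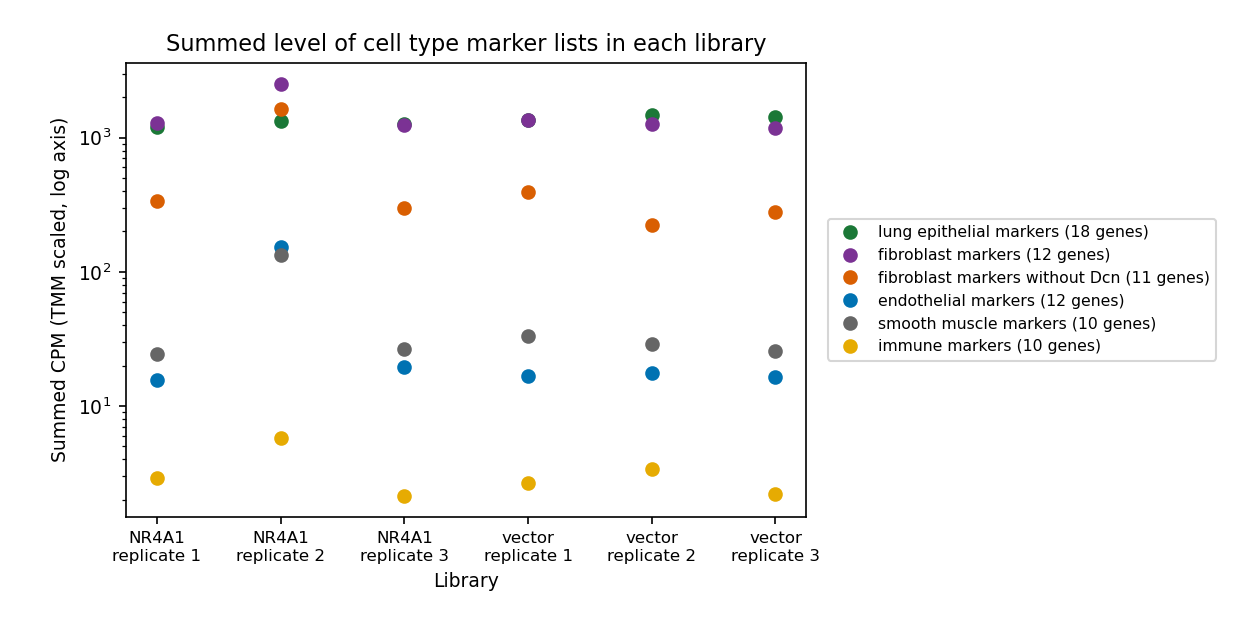
Summed CPM of each cell type marker list (log axis) in each of the 6 libraries, 1 point per list and library. NR4A1 replicate 2 holds the highest endothelial (152), smooth muscle (133) and fibroblast (2528) sums, while its epithelial sum is 1341, and those of NR4A1 replicates 1 and 3 (1196 and 1267) also lie below the vector libraries (1344 to 1479).

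None of the Wnt genes passed the test between NR4A1 and vector cells, and the abundant receptors, Dishevelled proteins and destruction complex genes differed little. Of the 44 genes, 33 had enough counts to be tested. With edgeR's quasi-likelihood test, 0 passed both thresholds (2-fold or more, adjusted p below 0.05) in either direction, where 0.17% of the 12941 genes tested were called higher and 0% lower. The smallest adjusted p among them was 0.131, for *Fzd5*. At an unadjusted p under 0.05, 4 genes were higher (*Frzb*, *Fzd5*, *Lgr4* and *Tcf7l2*) and 3 lower (*Wnt4*, *Wnt7a* and *Wnt10a*), beside 4.02% and 2.44% of all genes tested. Counted by libraries that did not overlap, 5 genes lay higher in all 3 NR4A1 libraries than in any vector library and 4 lay lower, beside 6.69% and 6.22% of all genes. *Frzb* and *Wnt10a* are among these, and each had enough counts for a test only in the group where it was high.

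A 2-fold difference with an unadjusted p under 0.05, the kind of criterion the study used, was found for *Frzb* in the higher direction (1.11% of all genes) and *Wnt10a* in the lower (0.131%). Each of these genes passed the filter on low counts only through the group where it was high, so its difference was in part a condition for being tested. DESeq2, which adjusted p-values for 32 of the genes, gave an adjusted p under 0.05 to *Fzd5* in the higher direction and *Wnt7a* in the lower, both under 2-fold, beside 0.94% and 0.194% of the genes it tested. Without NR4A1 replicate 2, edgeR again called 0 of 33, beside 0.191% of genes higher and 0.0229% lower, and 7 genes were higher and 1 lower at an unadjusted p under 0.05, beside 4.78% and 3.41%. The median log2 fold change of the 33 genes was 0.06, or 0.05 without that library, and that of all genes tested was 0.01.

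Length-scaled values (FPKM), which allow levels to be compared between genes, reached at least 1 on average in the vector libraries for 24 of the 44 genes. Their fitted log2 fold changes ran from -0.40 for *Wnt7a* to 0.60 for *Lgr4*, with standard errors of 0.0633 to 0.378, and 17 of the 24 lay within 0.25 of no difference.

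**Figure D2:**
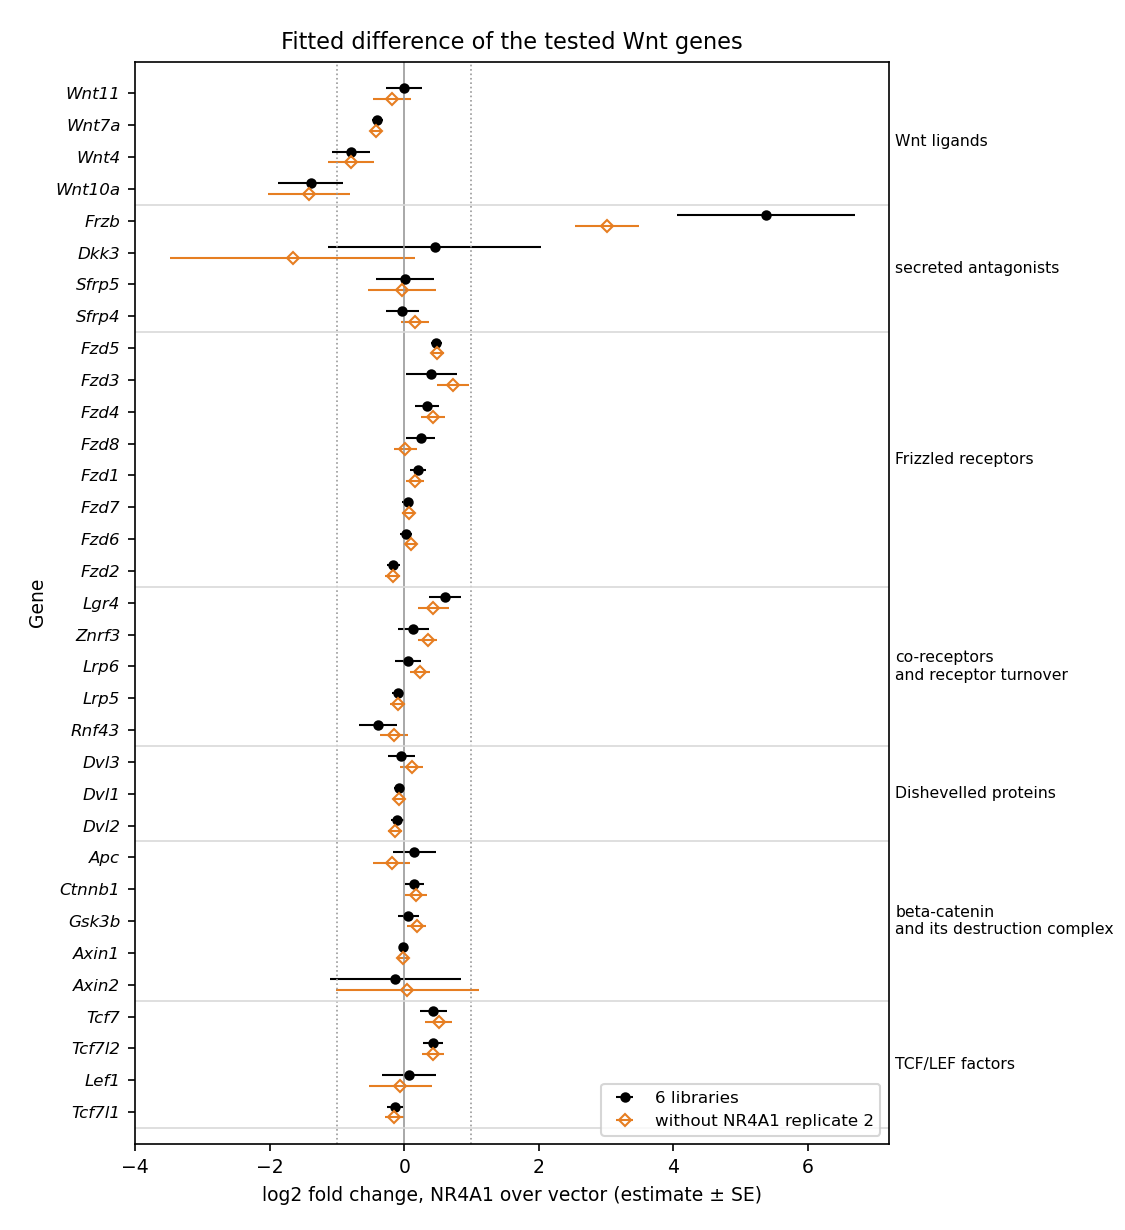
Fitted log2 fold change of NR4A1 over vector with its SE for the 33 Wnt genes tested, from all 6 libraries (filled circles) and without NR4A1 replicate 2 (open diamonds); dotted lines mark 2-fold. *Frzb* lies farthest from 0 with either set of libraries, *Wnt10a*, *Wnt4* and *Wnt7a* lie below 0, and *Dkk3* moves across 0 with the library.

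Among the 8 listed Wnt ligands, *Wnt7a* supplied nearly all of the transcript, and its level was lower in all 3 NR4A1 libraries. *Wnt7a* (chromosome 6, 91363981 to 91411363, GRCm38) is a ligand of epithelial and neural tissues that can signal with or without beta-catenin. It had 47.3, 51.3 and 51.0 CPM in NR4A1 replicates 1 to 3 and 67.0, 66.4 and 64.2 CPM in vector replicates 1 to 3. The NR4A1 libraries all lay below the lowest vector library, and the spread within each group was small beside the gap. The fitted ratio was 0.757 (log2 fold change -0.40, SE 0.0797), with an adjusted p of 0.193 by edgeR. It was 0.746 without NR4A1 replicate 2 (edgeR adjusted p = 0.209), and DESeq2 gave an adjusted p of 0.00743 on the 6 libraries. In FPKM, *Wnt7a* made up 91.3% ± 1.92 (SD, n = 3) of the summed level of the 8 ligands in vector cells and 91.7% ± 2.17 in NR4A1 cells. Ligands outside the 8 are not in that sum. The most abundant of them, *Wnt9a*, was at 2.36 FPKM in vector cells and 2.25 FPKM in NR4A1 cells. In vector cells *Wnt7a* was at 17.6 FPKM and *Wnt4*, the second of the 8, at 0.697 FPKM. Of 13 lung epithelial markers tested, 5 (*Cdh1*, *Krt8*, *Nkx2-1*, *Sftpb* and *Ager*) were lower in every NR4A1 library, beside 6.22% of all genes. Their fitted ratios were 0.779 to 0.920. Higher in every NR4A1 library was 1 marker (*Etv5*), beside 6.69% of all genes. None of these markers passed edgeR's test, and their part in the *Wnt7a* level was not tested. The summed level of the 8 ligands was 19.3 ± 0.0631 FPKM in the vector group and 14.3 ± 0.965 FPKM in the NR4A1 group.

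*Wnt4* and *Wnt10a* were also lower in every NR4A1 library, at much lower levels. *Wnt4*, a ligand of kidney and gonad development, had 24, 28 and 30 counts in the NR4A1 libraries and 55, 32 and 64 in the vector libraries. Its vector libraries were spread widely, and vector replicate 2 lay close to the NR4A1 group. The log2 fold change was -0.79 (SE 0.287, edgeR adjusted p = 0.683), and -0.79 without NR4A1 replicate 2 (adjusted p = 0.607). *Wnt10a*, a ligand of hair and tooth development, had 5, 6 and 6 counts against 11, 10 and 27, with a log2 fold change of -1.39 (SE 0.488, edgeR adjusted p = 0.671). No NR4A1 library reached the filter level of 10 counts at the median library size. *Wnt10a* was thus tested only because of the vector group, and its separation and p-values are to be read with that. Vector replicate 3 alone held more than the other vector libraries together, and without it the log2 fold change was -0.82 (edgeR adjusted p = 0.996).

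The remaining ligands did not separate the groups or were barely counted. *Wnt11*, a ligand of planar polarity, had 40 to 71 counts in the NR4A1 libraries and 44 to 67 in the vector libraries. *Wnt5a*, the best known ligand of beta-catenin-independent signaling and largely mesenchymal in lung, had 67 counts in NR4A1 replicate 2, 3 counts in vector replicate 1 and 0 in the other libraries. *Wnt5b*, its close relative, had at most 16 counts in a library, *Wnt3a* had 3 counts in vector replicate 2 and 0 elsewhere, and *Wnt7b*, a ligand of the developing lung epithelium, was at 0 in all 6 libraries. A count of 0 allowed up to 3 counts, or 0.170 to 0.203 CPM by library, for counting error only.

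The secreted antagonists held the largest difference of the whole list, that of *Frzb*. *Frzb* (chromosome 2, 80411970 to 80447625, GRCm38) encodes a secreted Frizzled-related protein that binds Wnt ligands outside the cell and is best known from cartilage. It had 25, 400 and 32 counts (1.69, 23.8 and 1.85 CPM) in NR4A1 replicates 1 to 3 and 6, 3 and 2 counts (0.347, 0.179 and 0.113 CPM) in vector replicates 1 to 3. Every NR4A1 library lay above every vector library, and NR4A1 replicate 2 lay 12.9 times above the next library. No vector library reached the filter level of 10 counts at the median library size, so the gene was tested only because of the NR4A1 group, and its p-values are to be read with that. The fitted log2 fold change was 5.38 with an SE of 1.32, and the edgeR adjusted p was 0.353. Without NR4A1 replicate 2 the difference was 8.07-fold (log2 3.01, SE 0.471), with an unadjusted p of 0.000338 and an adjusted p of 0.0763 by edgeR. Without vector replicate 1 as well, a choice made after the values were seen, the log2 fold change was 3.54 (SE 0.542) and edgeR's adjusted p was 0.0456. *Frzb* was then the 1 Wnt gene called, where 0.332% of genes were called higher and 0.0309% lower.

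The marker lists were set beside these values. In NR4A1 replicates 1 and 3, the fibroblast list without *Dcn* summed to 338 and 300 CPM, inside the range of the vector libraries (223 to 392) but above vector replicates 2 and 3 (223 and 280). The endothelial list summed to 15.7 and 19.4 CPM there, below and above the vector range of 16.5 to 17.5. *Frzb*, at 1.69 and 1.85 CPM, lay above all vector libraries (0.113 to 0.347). In NR4A1 replicate 2 these sums and *Frzb* were at their highest, and the part of other-cell markers in the *Frzb* levels was not tested. The study had picked *Frzb* from these same libraries for follow-up, so its position here is not independent evidence. In that follow-up, the study reported by RT-qPCR, a separate measure of transcript, that NR4A1 overexpression raised *Frzb* in MLE-12 cells.

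*Sfrp1*, *Sfrp2* and *Wnt5a* showed the same library but not the others. *Sfrp1* and *Sfrp2* encode secreted Frizzled-related proteins that are made by mesenchymal cells in many tissues. *Sfrp1* had 239 counts in NR4A1 replicate 2, 2 and 0 in NR4A1 replicates 1 and 3, and 7, 0 and 0 in vector replicates 1 to 3. *Sfrp2* had 49 counts in NR4A1 replicate 2 and at most 1 in any other library. With *Frzb* and *Wnt5a* they were the 4 genes, of 34 with counts enough to show it, that were at least 10-fold higher in NR4A1 replicate 2 than in every other library, beside 2.26% of all such genes. None of the 34 stood out this way in another library. Apart from *Frzb*, these genes failed the filter on low counts and had no test, and without that library nothing beyond 7 counts was left. The part of the endothelial and fibroblast markers of that library in these levels was not tested.

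*Dkk3* varied between libraries rather than between groups. It encodes a divergent member of the Dickkopf family, and had 10, 59 and 0 counts in the NR4A1 libraries and 52, 0 and 1 in the vector libraries. Its highest libraries, NR4A1 replicate 2 and vector replicate 1, were also those with the highest fibroblast sums without *Dcn* (1649 and 392 CPM), a link that was not tested. Its log2 fold change was 0.45 (SE 1.59) with all libraries and -1.66 (SE 1.82) without NR4A1 replicate 2 (edgeR adjusted p = 0.977 and 0.768). *Dkk2*, a Dickkopf protein that binds LRP5 and LRP6, had 11 counts in NR4A1 replicate 2 and 0 elsewhere. *Dkk1*, the classic LRP6 inhibitor and a common target of the pathway, had 1 count in all 6 libraries together.

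The antagonists that most libraries expressed overlapped between the groups. *Sfrp4*, the most abundant at 2.13 ± 0.218 FPKM in vector cells, had 66, 44 and 67 counts in the NR4A1 libraries and 57, 67 and 68 in the vector libraries. The lowest value was that of NR4A1 replicate 2, and the other 5 libraries lay close together. Its log2 fold change was -0.03 (SE 0.247), and 0.16 without that library (edgeR adjusted p = 0.991 and 0.799). *Sfrp5* had 11 to 37 counts and *Wif1*, which binds Wnt ligands directly, had 0 to 3.

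**Figure D3:**
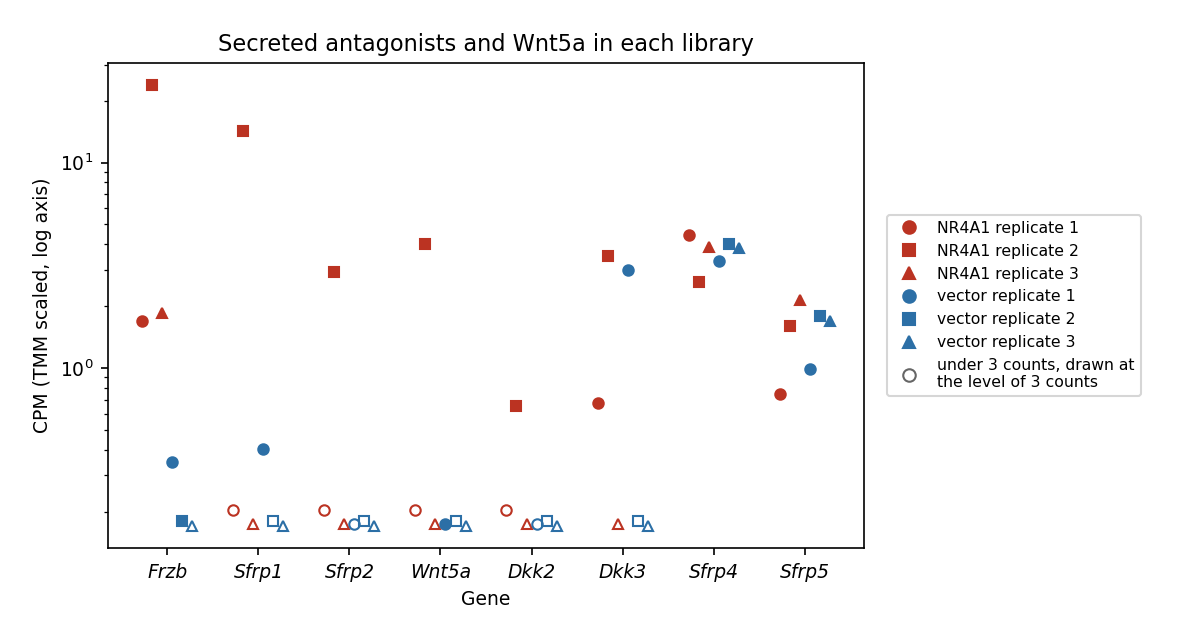
CPM on a log axis of 7 secreted antagonists and the ligand *Wnt5a* in each library; open symbols mark fewer than 3 counts, drawn at the level of 3 counts. *Frzb* is higher in all 3 NR4A1 libraries, *Sfrp1*, *Sfrp2*, *Wnt5a* and *Dkk2* reach 0.655 to 14.2 CPM in NR4A1 replicate 2 and at most 0.405 CPM elsewhere, and *Sfrp4* and *Sfrp5* overlap between the groups.

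Because NR4A1 binds DNA as a monomer at an extended response element, the promoters of the Wnt genes were searched for its letters, AAAGGTCA, and for the core AGGTCA that it contains, on both strands. RefSeq promoter sequences (GRCm38.p6, 250 bases before to 50 bases after a start site) were given for 29 of the 44 genes, with 39 promoters. The full letters were in 1 of these 39, a promoter of *Tcf7*, and in 1.51% of all 32851 promoters. The core was in 2 of the 39, of *Frzb* and *Tcf7*, and in 16.3% of all promoters. The windows with these matches are shown because *Frzb* held the largest difference and *Tcf7* the only full match. Capitals mark the match, which is on the reverse strand of each gene.
Frzb chr2:80447377-80447406, minus strand: gagccaaggcgcTGACCTcctctgagctcc
Tcf7 chr11:52282591-52282620, minus strand: cttccggtgcccTGACCTTTataggagtaa
The *Frzb* match began 3 bases after the RefSeq start, in the 5′ untranslated region of the longer GENCODE transcript, and the *Tcf7* match began 13 bases before one of its start sites and lay in no annotated exon. A match is a description of the letters, and no binding was measured here.

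**Figure D4:**
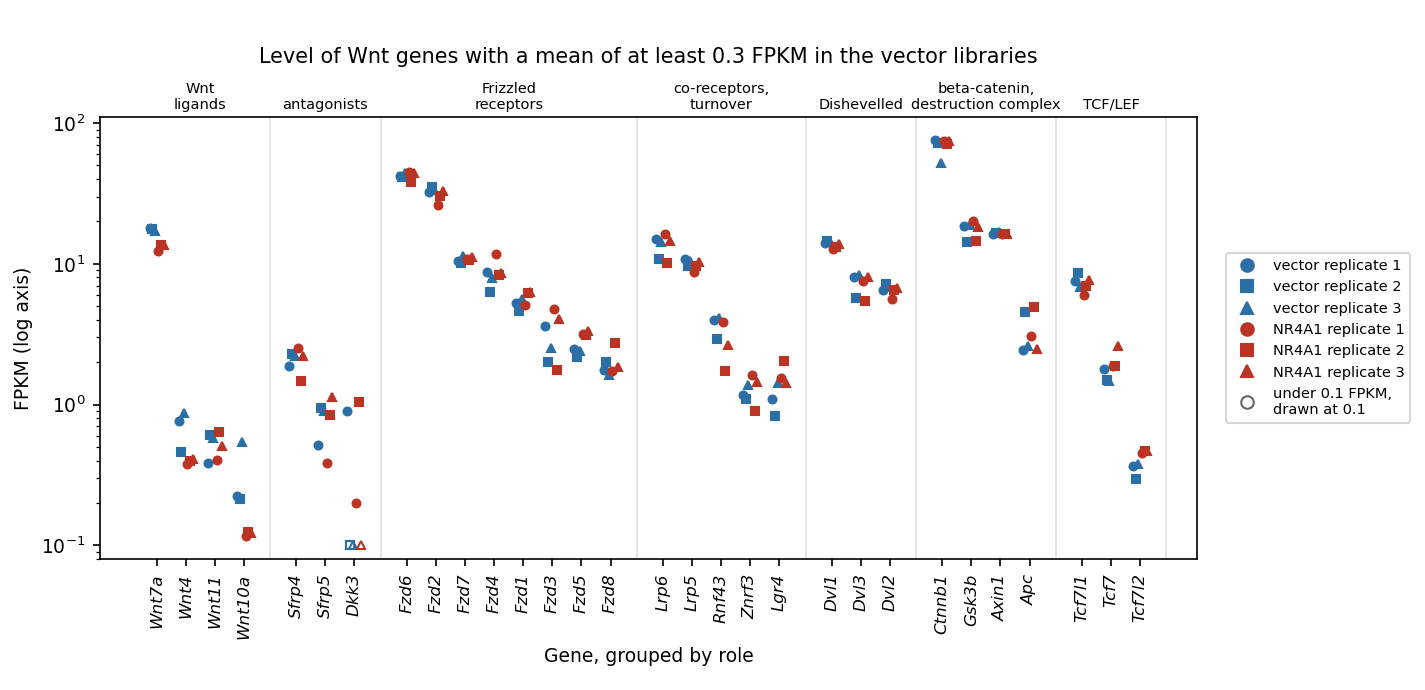
FPKM (log axis) of the Wnt genes with a mean of at least 0.3 FPKM in the vector libraries, grouped by role, with 1 point per library. *Wnt7a* stands above the other ligands, *Fzd6* and *Fzd2* lead the Frizzled receptors, and the 2 groups overlap for most genes.

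Frizzled receptors were abundant and their order was nearly fixed. *Fzd6*, a receptor of planar polarity, and *Fzd2*, which serves both arms of Wnt signaling, made up 39.8% ± 0.642 and 31.6% ± 2.03 of the summed Frizzled level in vector cells (FPKM, SD, n = 3). They were followed by *Fzd7* (9.97% ± 0.349), *Fzd4* (7.18% ± 1.01), *Fzd1* (4.85% ± 0.370), *Fzd3* (2.54% ± 0.738), *Fzd5* (2.20% ± 0.106) and *Fzd8* (1.70% ± 0.228). Neighbours in this order did not overlap between vector libraries, except *Fzd3* and *Fzd5*, of which *Fzd3* was the higher in 4 of 6 libraries. The summed Frizzled level was 107 ± 2.68 FPKM in vector and 108 ± 5.92 FPKM in NR4A1 cells. *Fzd6* itself was at 195, 162 and 189 CPM in NR4A1 and 177, 172 and 186 CPM in vector libraries (log2 fold change 0.03, SE 0.0885, edgeR adjusted p = 0.976), with overlapping groups.

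*Fzd5* was the one tested Frizzled gene whose groups did not overlap. It encodes a receptor that mostly acts through beta-catenin in endoderm and eye. *Fzd5* had 31.5, 31.0 and 32.9 CPM in the NR4A1 libraries and 24.2, 21.1 and 23.3 CPM in the vector libraries. The range within each group was narrow, and the gap did not depend on NR4A1 replicate 2. The difference was 1.39-fold (log2 0.48, SE 0.0842), with an adjusted p of 0.131 by edgeR and 0.0189 by DESeq2, and 1.41-fold without that library (edgeR adjusted p = 0.184). Its share of the Frizzled level was 2.99% ± 0.102 in NR4A1 and 2.20% ± 0.106 in vector cells. The gene (chromosome 1, 64730558 to 64737751, GRCm38) shares exon bases with an opposite-strand model, *Gm38058*, which had at most 3 counts.

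The other Frizzled genes with a test overlapped between the groups. *Fzd2*, *Fzd7*, *Fzd4* and *Fzd1* had log2 fold changes of -0.16, 0.06, 0.34 and 0.21. *Fzd8* had 155 counts in NR4A1 replicate 2, 87 and 108 in the other NR4A1 libraries and 96 to 112 in the vector libraries, and its log2 fold change of 0.25 became 0.01 without that library. *Fzd3*, a planar polarity receptor, had 317, 132 and 314 counts in the NR4A1 libraries and 275, 148 and 196 in the vector libraries. Replicate 2 was the lowest in either group. Its log2 fold change was 0.40 (SE 0.378) with all libraries and 0.72 (SE 0.235) without NR4A1 replicate 2, where edgeR's adjusted p was 0.522. *Fzd9*, with 3, 1 and 4 counts against 8, 5 and 8, did not overlap between the groups but was too low to test, as was *Fzd10* (2 counts, in NR4A1 replicate 2).

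Co-receptors and receptor turnover genes gave 1 separated gene, *Lgr4*. LGR4 is a receptor for R-spondins and protects Frizzled receptors from removal by the ubiquitin ligases RNF43 and ZNRF3. *Lgr4* (chromosome 2, 109917647 to 110014257, GRCm38) had 9.60, 12.5 and 8.61 CPM in the NR4A1 libraries and 6.66, 4.95 and 8.55 CPM in the vector libraries. NR4A1 replicate 3 and vector replicate 3 were almost level, so the separation was narrow. The difference was 1.52-fold (log2 0.60, SE 0.242, edgeR adjusted p = 0.738), and 1.35-fold without NR4A1 replicate 2 (adjusted p = 0.633).

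*Lrp6*, the main co-receptor by level, had 257, 160 and 229 CPM in NR4A1 and 232, 167 and 221 CPM in vector libraries. Replicate 2 was the lowest in both groups, and the groups overlapped (log2 fold change 0.06, SE 0.195, edgeR adjusted p = 0.976). *Lrp5*, the second co-receptor, had a log2 fold change of -0.09. *Rnf43*, one of the ligases and itself a common target of the pathway, had 642, 325 and 510 counts against 759, 536 and 798. NR4A1 replicates 2 and 3 lay below the vector range and replicate 1 inside it, and the log2 fold change of -0.40 became -0.15 without NR4A1 replicate 2 (edgeR adjusted p = 0.886 and 0.810). *Znrf3*, the partner ligase, was at 0.14, and at 0.35 without that library.

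Dishevelled proteins, which carry the signal from Frizzled to the destruction complex, were near level. *Dvl1*, the most abundant at 14.2 ± 0.227 FPKM in vector cells, had 147, 151 and 157 CPM in the NR4A1 libraries and 159, 162 and 161 CPM in the vector libraries. All NR4A1 libraries were lower, but by little, with a ratio of 0.943 (log2 -0.08, SE 0.0633, edgeR adjusted p = 0.890). *Dvl2* and *Dvl3* had log2 fold changes of -0.10 and -0.04. *Dvl2* shares 1151 exon bases with the opposite-strand gene *Acadvl*, which had 2110 to 2740 counts, so its level depends on whether the counting used strand.

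Beta-catenin and its destruction complex gave no separated gene. *Ctnnb1*, which encodes beta-catenin, was the most abundant gene of the list, with 739, 702 and 734 CPM in NR4A1 and 748, 706 and 507 CPM in vector libraries. Only vector replicate 3 was low, and the other 5 libraries lay close together. Its log2 fold change was 0.15 (SE 0.144, edgeR adjusted p = 0.921) and -0.0047 without vector replicate 3. It shares 759 exon bases with the opposite-strand gene *Ulk4*, which had 204 to 341 counts. *Axin1*, the scaffold of the complex, was steady, at 83.6 to 85.2 CPM in NR4A1 and 84.2 to 86.8 CPM in vector libraries. *Gsk3b*, its kinase, had a log2 fold change of 0.06, and *Apc*, its second scaffold, of 0.15 (SE 0.322), and of -0.19 without NR4A1 replicate 2. *Apc* was at 136 and 123 CPM in the replicate 2 libraries of the 2 groups and at 65.7 to 85.0 CPM in the other libraries. *Axin2*, a widely used target gene that reports beta-catenin activity, had 2, 5 and 13 counts against 12, 0 and 11. Libraries within each group differed widely at these low counts, and the log2 fold change of -0.13 (SE 0.972) resolved no difference.

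TCF/LEF factors bind DNA and recruit beta-catenin to it, and 2 of the 4 were higher in every NR4A1 library. *Tcf7l2*, a factor widely used in endoderm, had 10.1, 10.3 and 10.2 CPM in the NR4A1 libraries and 8.04, 6.39 and 8.33 CPM in the vector libraries. The NR4A1 libraries were nearly equal, and all lay above the vector range. The difference was 1.35-fold (log2 0.43, SE 0.151, edgeR adjusted p = 0.671), and 1.34-fold without NR4A1 replicate 2 (adjusted p = 0.598). *Tcf7*, a factor best known from T cells, had 6.35, 6.31 and 8.72 CPM against 5.96, 4.95 and 4.93 CPM, a 1.35-fold difference (log2 0.43, SE 0.198, edgeR adjusted p = 0.784). It was 1.43-fold without NR4A1 replicate 2 (adjusted p = 0.605), and its gap rested more on NR4A1 replicate 3, without which the log2 value was 0.25.

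*Tcf7l1*, a factor known mainly as a repressor, was the most abundant of the 4, at 78.3% ± 2.92 of their summed FPKM in vector cells and 71.3% ± 1.56 in NR4A1 cells. *Tcf7* made up 16.3% ± 1.98 and 21.9% ± 2.10. *Tcf7l1* had 31.2, 35.7 and 39.1 CPM in the NR4A1 libraries and 38.3, 43.6 and 34.9 CPM in the vector libraries, which overlapped (log2 fold change -0.14, SE 0.120, edgeR adjusted p = 0.905). *Lef1* had 22, 35 and 31 counts against 44, 29 and 15.

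**Figure D5:**
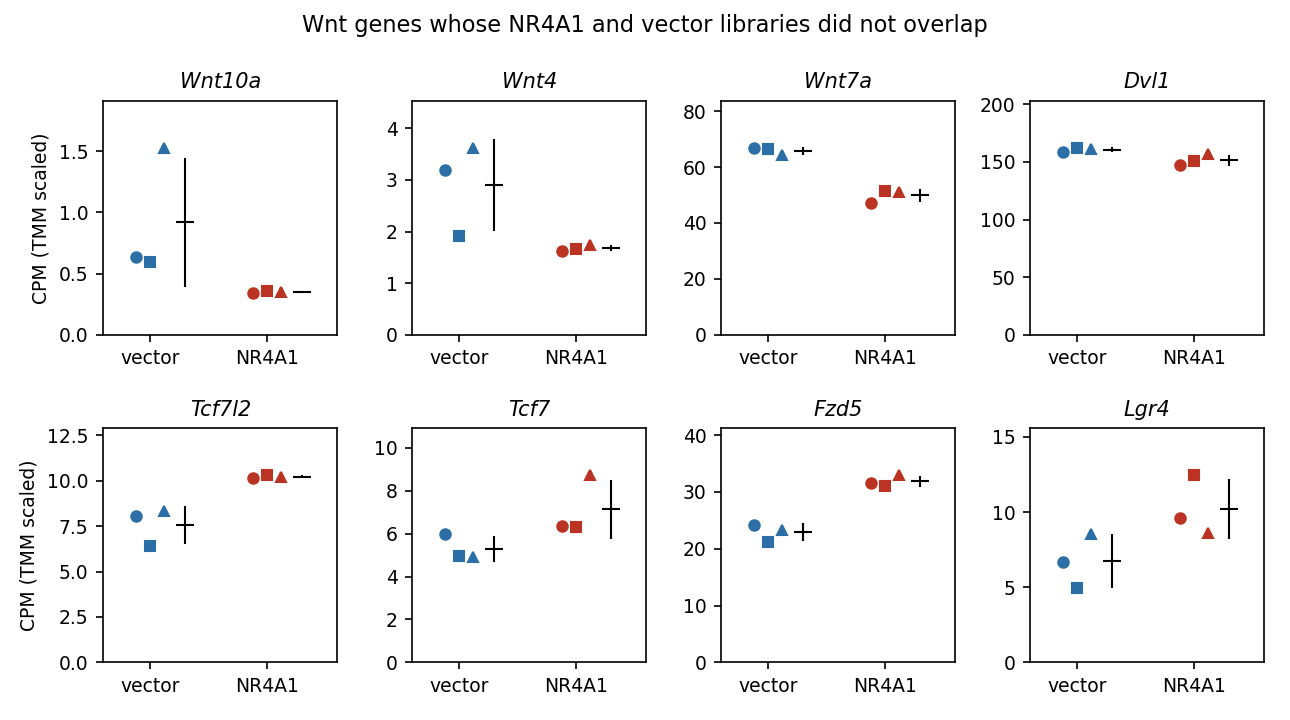
CPM of the 8 tested genes other than *Frzb* whose NR4A1 and vector libraries did not overlap, on axes that start at 0, with 1 symbol per library and the mean ± SD (n = 3) beside each group. *Wnt10a*, *Wnt4*, *Wnt7a* and *Dvl1* are lower and *Tcf7l2*, *Tcf7*, *Fzd5* and *Lgr4* higher in all NR4A1 libraries, with a narrow gap for *Dvl1* and *Lgr4*.

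A wider list of 102 further pathway genes was fitted in the same way, and it likewise gave no call. It held the other ligands, R-spondins, other receptors and inhibitors, planar polarity genes, cytoplasmic regulators, nuclear partners of beta-catenin and common target genes. Of 70 tested, 0 passed both thresholds with edgeR and 0 with DESeq2. DESeq2 results at any fold are not given for this list. At an unadjusted p under 0.05 by edgeR, 4 were higher and 1 was lower, beside the 4.02% and 2.44% of all genes. The median log2 fold change of the 70 was 0.02. All 18 nuclear partners of beta-catenin were tested, none of them reached an unadjusted p under 0.05 with 6 libraries, and their log2 fold changes lay between -0.17 and 0.27.

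*Cd44*, an adhesion receptor and common target gene, came closest by edgeR's adjusted p, at less than 2-fold. It had 110, 110 and 92.9 CPM in the NR4A1 libraries and 71.1, 66.2 and 67.3 CPM in the vector libraries. The groups were well apart, at a log2 fold change of 0.61 (SE 0.0932, edgeR adjusted p = 0.0734), and 0.57 without NR4A1 replicate 2 (adjusted p = 0.118). *Bambi*, a decoy receptor of the TGF-beta family and target gene, had 348, 398 and 409 counts against 328, 348 and 276 (log2 fold change 0.36, edgeR adjusted p = 0.644). *Dact2*, a Dishevelled-binding regulator, had 202, 252 and 238 counts against 297, 282 and 308, with a log2 fold change of -0.28 (edgeR adjusted p = 0.665). These 3 kept their direction without NR4A1 replicate 2.

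Further genes of that list followed NR4A1 replicate 2. *Sox9*, a factor of lung tips and cartilage, had 124 counts there, 51 and 53 in the other NR4A1 libraries and 32 to 52 in the vector libraries, and its log2 fold change went from 0.94 to 0.43 without it. *Prickle2*, a planar polarity gene, had 50 counts there and 7 to 16 elsewhere. *Wnt2*, a ligand of lung mesenchyme, had 42 counts there and at most 4 elsewhere, the R-spondin *Rspo3* 47 and at most 2, the AP-1 subunit *Fosl1* 202 and at most 7, and the guidance receptor *Ephb2* 90 and at most 9. The part of that library's endothelial, fibroblast and smooth muscle markers in these levels was not tested.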

How the data were processed

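RNA from 3 NR4A1 and 3 vector libraries was prepared with a strand-specific kit. Per the labels, reads were aligned with HISAT2 2.0.4 to GRCm38.p4, and the counting program, its annotation and its use of strand are not given in the sources used here. The authors deposited 1 table with raw read counts and FPKM values per gene and library. All columns were used.

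Counts were tested with edgeR 4.0.16 (TMM scaling, filterByExpr, quasi-likelihood test, Benjamini-Hochberg adjustment over all 12941 genes tested, or 13084 without NR4A1 replicate 2) in R 4.3.3. A call needed an adjusted p under 0.05 and a 2-fold difference. CPM were TMM scaled, and the deposited FPKM served for levels between genes. DESeq2 1.42.0, limma 3.58.1 (also on log2(FPKM + 1)), other scalings and filters, the replicate block and leaving out each library were the alternatives. Scripts were tested on simulated data.

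The genes and lists were chosen with earlier results of these data known. Values in every library were given for genes at least 10-fold higher in 1 library than in every other, genes whose groups did not overlap and the most abundant gene of each class. Other genes shown were chosen after their values were seen. Of the wider list, 3 genes were matched by an older symbol. No pair of libraries was a duplicate.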

Additional observations from a re-analysis of the deposited data

How the results depend on the processing

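The Wnt genes past the threshold numbered 0 under every planned edgeR, DESeq2 and limma setting with an adjusted p. They numbered 2 with an unadjusted p and a 2-fold difference (1 of the wider pathway list). They numbered 1 (*Frzb*, log2 fold change 3.54) in the 4 libraries left without NR4A1 replicate 2 and vector replicate 1. That choice was made after seeing the data. Over all genes, the count was 22, and 73 with DESeq2, 8 with a mean of at least 10 counts, 5 with the replicate block, 7 with limma on log2(FPKM + 1), 47 in those 4 libraries, 161 with an unadjusted p, and 3 to 28 without 1 library: 28 without NR4A1 replicate 2, 4 and 3 without NR4A1 replicates 1 and 3, and 6 without any 1 vector library. The cause was not tested. The count of separated genes was 9 with 6 libraries and 10 to 12 without 1 library, where non-overlap is easier to reach. Shares over all genes are not given for those smaller sets. The median log2 fold change ran from 0.01 to 0.06. Of 221 alternative values for 14 named genes, 211 kept their direction and side of the threshold. Only *Wnt4*, *Wnt10a* and *Frzb* reached 2-fold in any setting, so the other genes could not change their side of it. *Wnt7a* and *Fzd5* thus count as kept, although DESeq2 gave them adjusted p-values of 0.00743 and 0.0189. The log2 fold change turned for *Sfrp4* (from -0.19 to 0.16 without 1 library, the highest without NR4A1 replicate 2, and 0.084 in the 4 libraries), *Fzd6* (-0.026 without NR4A1 replicate 1 to 0.10 without NR4A1 replicate 2), *Lrp6* (-0.088 without NR4A1 replicate 1 to 0.23 without NR4A1 replicate 2) and *Ctnnb1* (-0.0047 without vector replicate 3 to 0.26 without vector replicate 1), all between -0.03 and 0.15 with all libraries. DESeq2 gave *Frzb* no adjusted p. Correlations of same-numbered deviations were -0.01, -0.05 and 0.25, and NR4A1 replicate 3 alone correlated best with its own number. Yet 22.6% of all genes tested were lowest and 22.4% highest in replicate 2 of both groups. These shares were 17.8% and 16.0% for replicate 1, and 7.86% and 7.77% for replicate 3. Whether the replicate numbers pair the samples was thus not settled. The fit with the replicate block called 0 Wnt genes. The filter on low counts left 11 of the 44 genes untested, among them *Sfrp1*, *Sfrp2* and *Wnt5a*, which were counted mostly in NR4A1 replicate 2.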

Other observations

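Over all genes tested, the libraries numbered 2 shared low and high values in both groups more often than those numbered 1 or 3, so the values below are not particular to the Wnt genes. Of the 33 Wnt genes tested, 10 had their lowest CPM of each group in replicate 2 of both groups (*Fzd7*, *Fzd5*, *Lrp6*, *Rnf43*, *Dvl3*, *Fzd3*, *Fzd6*, *Znrf3*, *Gsk3b* and *Fzd4*), beside 22.6% of all genes tested. In *Lrp6* this was 160 CPM against 229 and 257 in the NR4A1 group and 167 CPM against 221 and 232 in the vector group. *Apc*, *Wnt11* and *Fzd8* had their highest value in replicate 2 of both groups, beside 22.4% of all genes tested. No Wnt gene had its lowest value in replicate 3 of both groups, beside 7.86% of all genes. The labels do not say what the replicate numbers share.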
